A study of Mus musculus with 3 samples.

Results

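Of the 7197 promoter fragments listed as viewpoints in a genome-scale capture of mouse erythroid cells, 566 on the autosomes lay more than 300 kb from the midpoint of every other listed viewpoint of their chromosome. After 31 of them with fewer than 1000 cis events were left out, 535 isolated viewpoints remained, and these are described here against the other 5982 autosomal viewpoints that passed the same depth minimum. A viewpoint is a DpnII restriction fragment carrying a promoter that was pulled down with an oligonucleotide probe, and a cis event is a unique ligation junction between that fragment and another fragment of the same chromosome. The design held promoters chosen as active in erythroid cells from chromatin marks and a set of inactive control promoters. Of the isolated viewpoints, 491 were active and 44 were inactive controls, against 5850 active and 132 inactive among the other viewpoints.

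The data were NuTi Capture-C, a form of chromosome conformation capture in which nuclei are isolated after ligation and probes are titrated. There were 3 libraries of 1 group and no control or treated comparison group. The cells were ter119-selected, CD71+ ter119+ erythroid cells from the spleens of F1 hybrids of C57BL/6 and CBA/J mice given phenylhydrazine, a drug that lyses red cells and drives splenic erythropoiesis. The contact table holds only ligation signal, scaled per viewpoint, so the erythroid label could not be set against expression markers. The libraries, called a, b and c here because the columns carry no names, held 18230099, 34428035 and 34233560 cis events over all listed viewpoints. Libraries b and c differed by little more than counting error around the isolated viewpoints (chi-square per 10 kb bin 1.04, against 1.21 for a and b and 1.19 for a and c). They were therefore counted as 1 sample in every mean and SD, which gives n = 2. That was a choice made from these counts, as the study describes 3 independent 3C libraries. With 2 samples an exact two-sided sign-flip test cannot go below p = 0.5, and with 3 libraries not below 0.25, so differences are given per library without a test, and single viewpoints are not treated as replicates.

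In the nucleus, ligation frequency falls with distance along the chromosome, and active, gene-rich chromatin tends to meet other active chromatin while silent, gene-poor chromatin meets other silent chromatin, a division known as A and B compartments. Promoters that lie far from other active promoters often belong to genes with large regulatory domains, such as developmental transcription factors, and in erythroid cells the accessible regulatory elements frequently carry GATA words, such as AGATAA, which are bound by GATA1. Contacts between promoters are a recurrent feature of maps made from active promoters.

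To show the sequence around these promoters, 150 bases before the annotated start are printed for 7 active viewpoints, namely 5 isolated members of fixed lists of blood regulators and red cell proteins and 2 of the deepest. Coordinates are mm9, starts are from GENCODE M1, the strand shown is that of the gene, and capitals mark each CG dinucleotide.
Klf6, chr13:5860585-5860734, strand +: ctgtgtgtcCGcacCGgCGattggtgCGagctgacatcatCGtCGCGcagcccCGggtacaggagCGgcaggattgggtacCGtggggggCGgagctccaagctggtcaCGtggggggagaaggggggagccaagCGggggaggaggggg
Klf3, chr5:65194478-65194627, strand +: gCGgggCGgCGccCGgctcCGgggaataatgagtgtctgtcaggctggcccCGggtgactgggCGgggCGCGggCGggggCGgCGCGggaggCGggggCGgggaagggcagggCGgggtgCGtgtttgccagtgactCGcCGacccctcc
Klf13, chr7:71083802-71083951, strand -: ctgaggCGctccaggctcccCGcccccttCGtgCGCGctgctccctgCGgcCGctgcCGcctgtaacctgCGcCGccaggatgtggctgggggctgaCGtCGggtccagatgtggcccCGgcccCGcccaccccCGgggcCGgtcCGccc
Ets1, chr9:32503477-32503626, strand +: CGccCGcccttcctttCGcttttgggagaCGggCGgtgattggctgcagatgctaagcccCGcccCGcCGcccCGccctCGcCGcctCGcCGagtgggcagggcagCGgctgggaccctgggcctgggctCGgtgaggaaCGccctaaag
Kel, chr6:41654339-41654488, strand -: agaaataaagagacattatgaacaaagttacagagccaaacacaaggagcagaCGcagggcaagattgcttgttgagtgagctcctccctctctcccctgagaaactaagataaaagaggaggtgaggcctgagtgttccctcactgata
1190002N15Rik, chr9:94438501-94438650, strand -: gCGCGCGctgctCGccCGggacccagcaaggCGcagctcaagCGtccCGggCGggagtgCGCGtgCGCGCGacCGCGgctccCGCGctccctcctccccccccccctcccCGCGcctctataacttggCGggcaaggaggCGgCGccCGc
Vps13c, chr9:67688053-67688202, strand +: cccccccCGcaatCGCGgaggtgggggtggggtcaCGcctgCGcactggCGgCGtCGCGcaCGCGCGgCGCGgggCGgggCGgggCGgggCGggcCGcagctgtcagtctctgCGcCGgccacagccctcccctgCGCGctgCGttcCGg
The number of CG dinucleotides was 13 in Klf6, 19 in Klf3, 17 in Klf13, 16 in Ets1 and 1 in Kel. It was 24 in 1190002N15Rik and 25 in Vps13c.

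For contrast, the same stretch is printed for the 4 deepest inactive controls with an annotated start inside the viewpoint and no annotated exon in the stretch.
Olfr983, chr9:39901144-39901293, strand -: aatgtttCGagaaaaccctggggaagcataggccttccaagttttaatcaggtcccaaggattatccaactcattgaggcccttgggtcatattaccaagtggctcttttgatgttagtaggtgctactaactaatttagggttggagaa
Serpinb7, chr1:109319116-109319265, strand +: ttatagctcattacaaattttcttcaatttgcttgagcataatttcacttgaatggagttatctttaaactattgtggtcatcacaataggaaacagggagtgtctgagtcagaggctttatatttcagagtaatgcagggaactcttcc
Zbtb18, chr1:179374642-179374791, strand +: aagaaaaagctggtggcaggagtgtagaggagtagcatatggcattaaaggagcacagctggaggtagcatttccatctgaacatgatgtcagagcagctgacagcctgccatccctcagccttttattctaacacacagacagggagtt
Serpina3i, chr12:105501182-105501331, strand +: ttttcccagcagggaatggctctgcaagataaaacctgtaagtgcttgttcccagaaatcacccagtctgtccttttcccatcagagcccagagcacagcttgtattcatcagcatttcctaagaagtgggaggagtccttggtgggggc
Olfr983, an olfactory receptor gene, had 1 CG, and none was found in Serpinb7 or Serpina3i, which encode serine protease inhibitors, or in Zbtb18, a zinc-finger repressor. Over whole viewpoint fragments, the median ratio of observed to expected CG was 0.782 for isolated active viewpoints, 0.277 for isolated inactive controls and 0.755 for the other autosomal viewpoints. The Kel promoter, which drives the Kell blood group endopeptidase of the red cell membrane, carried the GATA1-type word AGATAA 42 bases before the start, in capitals here.
Kel: cctgagaaactaAGATAAaagaggaggtga
The stretches of the inactive controls Serpinb7 and Serpina3i printed above also hold this word, in Serpinb7 as TTATCT on the strand shown. The word AGATAA, searched on both strands, occurred in 136 of 535 isolated viewpoint fragments (25.4%) and in 20.1% of the other autosomal ones, which were shorter (median 748 against 827 bases). Per 1000 bases there were 0.400 words in isolated viewpoints, 0.299 in the others and 0.304 in those with the nearest viewpoint at 100 to 300 kb. Among isolated viewpoints it was in 17 of 44 inactive controls (38.6%) and 24.2% of active ones.

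The isolated viewpoints came from all 19 autosomes, with 11 to 49 on each. Their nearest other listed viewpoint was at a median of 524 kb, was over 1 Mb away for 99 and over 2 Mb away for 18. The distance is to other targeted promoters, not to all genes. A median of 3 other protein-coding starts lay within 300 kb, against 11 for the other autosomal viewpoints, 56 isolated viewpoints had 0, and the largest number was 36. GC content within 300 kb was 42.2% at the median, against 45.5%. The annotated genes were longer than in the pooled others (40916 against 21234 bases at the median, for viewpoints with genes on 1 strand). Genes were as long, at 42585 bases, for viewpoints with the nearest other at 100 to 300 kb. These had a median of 6 other coding starts and 43.9% GC within 300 kb. Depth was similar for active isolated viewpoints and the other viewpoints (median 6866 and 6750 events over the 3 libraries), whereas isolated inactive controls held a median of 73264.5 events, and the inactive controls elsewhere 67862. The 10 viewpoints just inside the distance limit (301 to 306 kb) had a median of 39.5% of events beyond 10 Mb and the 10 just outside it (292 to 299.6 kb) 35.7%. In the share from 100 to 300 kb the values were 5.95 and 5.87%. In the ratio for windows without a listed viewpoint, used below, they were 0.465 and 0.515. In both measures, the 10 inside did not lie on the side on which all isolated viewpoints lay. At the depth limit, Stam_Stamos was just inside with 1010 events and Ccdc6 just outside with 997.

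Isolated promoters put a smaller share of their ligation events into the surrounding 300 kb and a larger share beyond 1 Mb than the other promoters did. From 100 to 300 kb, the range in which the rule allows no other listed viewpoint, the median share was 5.84, 5.43 and 5.29% in libraries a, b and c, against 10.5, 9.83 and 9.86% for the other autosomal viewpoints. Targeted fragments are not listed as contacts, so no event of either set in this range ends on a viewpoint itself. From 10 to 100 kb the shares were 12.3, 11.1 and 11.3% against 17.8, 16.0 and 16.1%. Both shares were lower than in the pooled others in 3 of 3 libraries, and within each of the 19 chromosomes. Viewpoints with the nearest other at 100 to 300 kb lay between. They had 9.34, 8.68 and 8.70% from 100 to 300 kb, and 14.1, 12.6 and 12.6% from 10 to 100 kb.

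Beyond 10 Mb the order was turned. Isolated viewpoints had a median of 41.5, 44.1 and 43.4% of cis events there (42.6% ± 1.6, SD, n = 2), against 30.7, 34.0 and 33.8% (32.3% ± 2.26, SD, n = 2). The lowest isolated median was above the highest of the others, and the difference taken within each library was 10.4 ± 0.67 percentage points (SD, n = 2). The difference held within 19 of 19 chromosomes, where it ran from 4.14 to 15.0 percentage points. Viewpoints in the most crowded surroundings, the 736 with at least 12 other viewpoints within 300 kb, had 22.7% ± 2.37 (SD, n = 2), and the share was 36.5% ± 2.17 (SD, n = 2) for the 1090 whose nearest neighbour was at 100 to 300 kb. Among the isolated active viewpoints with the nearest viewpoint at 300 to 500 kb the share was 39.03, 41.6 and 41.4% in libraries a, b and c. It was 41.9, 44.6 and 44.4% with the nearest at 500 kb to 1 Mb, and 43.7, 46.8 and 46.1% with the nearest beyond 1 Mb. The order was the same in 3 of 3 libraries, although the ranges over libraries of the last 2 classes overlap.

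**Figure D1:**
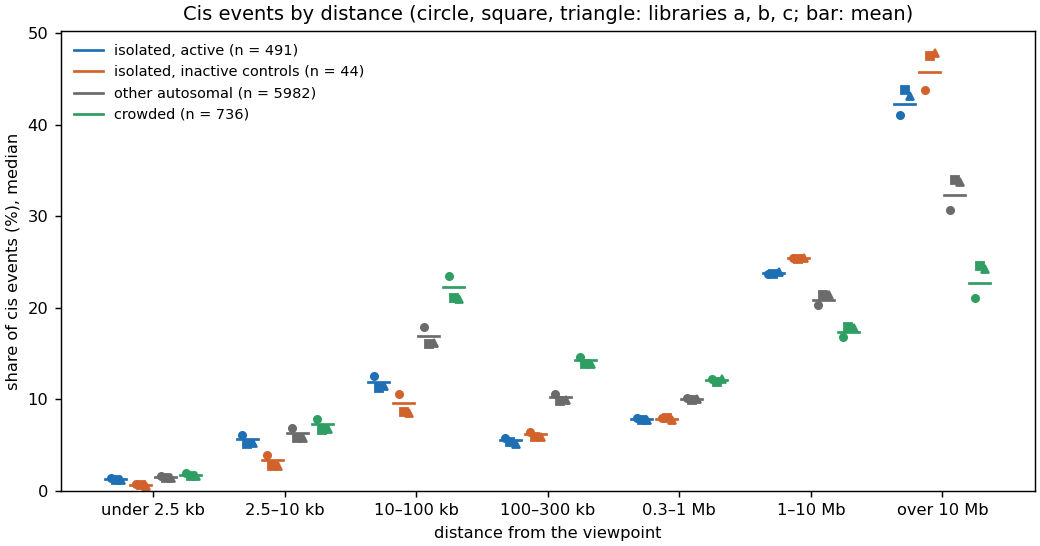
Median share of cis events (vertical axis, percent) in 7 ranges of distance for isolated active viewpoints, isolated inactive controls, the other autosomal viewpoints and crowded viewpoints. Points are libraries a, b and c and bars their mean over 2 samples. Isolated viewpoints lie lowest from 100 to 300 kb (5.49% for active, 6.15% for inactive) and highest beyond 10 Mb (42.2% and 45.7%, against 22.7% for crowded viewpoints).

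GC content differed with isolation, so the shares were also read within it. In the lowest tertile of GC within 300 kb among isolated active viewpoints, 45.5% ± 1.47 of events lay beyond 10 Mb, against 41.5% ± 0.979 for the other active viewpoints of that GC range (SD, n = 2). In the middle tertile the values were 42.2% ± 1.82 and 36.9% ± 2.20, and in the highest tertile 38.9% ± 2.46 and 30.3% ± 2.42 (SD, n = 2). The isolated viewpoints were higher in each tertile and in 3 of 3 libraries, and in both sets the share fell as GC rose. Both sets were cut at 41.0 and 43.4% GC, the tertile limits of isolated active viewpoints, and GC was not matched inside a class. The lowest and highest classes have no outer limit. Median GC was 42.3% for isolated active and 45.5% for other active viewpoints, so the sets can still differ in GC inside a class. The part of GC in the difference between isolated and other viewpoints was not otherwise tested.

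The decay with distance differed in shape. Over 10 to 300 kb, the slope of log10 events per fragment on log10 distance was -0.97 ± 0.015 for isolated active viewpoints and -0.84 ± 0.020 for the other autosomal viewpoints (SD, n = 2). The count thus fell faster around isolated active promoters. The rule leaves no other listed viewpoint in this range around isolated viewpoints. For other active viewpoints, 23.1% of the 10 kb bins from 20 to 300 kb lay within 10 kb of a listed one. The part of such bins in the slopes was not tested. Over 10 kb to 1 Mb the slopes were -0.91 ± 0.019 for all isolated viewpoints and -0.92 ± 0.023 for the others (SD, n = 2). Within each library the isolated slope was the shallower, by 0.0061 ± 0.0045 (SD, n = 2), a difference that was 0.0030 without library a and turned without inactive controls. Inactive controls decayed more slowly than active viewpoints, with slopes from 10 to 300 kb of -0.77, -0.69 and -0.69 for isolated inactive controls and -0.77, -0.72 and -0.72 for inactive controls elsewhere, which do not differ beyond their spread. The profile of isolated inactive controls has a shoulder at 178 and 224 kb, the ranges that hold the contacts of C130026I21Rik and Gm5885 with fragments of matching sequence, described below. Their part in the shoulder was not tested.

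**Figure D2:**
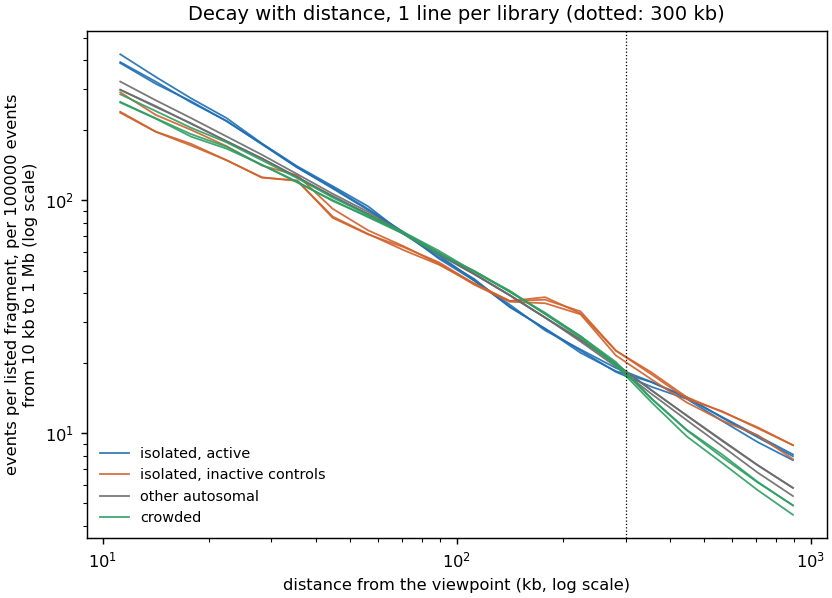
Cis events per fragment, scaled to 100000 events from 10 kb to 1 Mb per viewpoint (vertical axis, log scale), against distance in kb (horizontal axis, log scale), with 1 line per library. Isolated active viewpoints start highest at 10 kb and fall most steeply to 300 kb (slope -0.97), whereas isolated inactive controls fall with a slope of -0.73.

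The distant contacts of isolated promoters fell in stretches without a listed viewpoint more often than those of other promoters. Such stretches can hold promoters that were not targeted. Each chromosome was cut into 500 kb windows. The share of events beyond 2 Mb that ended in windows without any listed viewpoint was divided by the share of fragments in such windows. A value of 1 means as many events as the fragments alone would give, with distance left out of the expectation. The ratio was 0.635, 0.679 and 0.679 for isolated viewpoints (0.657 ± 0.031, SD, n = 2) and 0.430, 0.462 and 0.462 for the others (0.446 ± 0.023, SD, n = 2). Among the others it rose with the distance to the nearest viewpoint. It was 0.392 ± 0.020 up to 10 kb, 0.440 ± 0.025 at 10 to 100 kb and 0.549 ± 0.021 at 100 to 300 kb (SD, n = 2). The ranges over libraries of the isolated and the pooled other viewpoints do not overlap. Isolated viewpoints were higher on 19 of 19 chromosomes (by 0.07 to 0.35), also when only active viewpoints were compared (19 of 19). Both sets of active promoters nevertheless stayed under 1, at 0.631 ± 0.030 and 0.443 ± 0.023 (SD, n = 2). Against an expectation matched for distance, the ratio was 0.644 ± 0.034 for all isolated viewpoints and 0.465 ± 0.023 for the others (SD, n = 2). Over the classes of window, the ratio of isolated active viewpoints without this matching was highest with 3 to 5 viewpoints, at 1.505 ± 0.058 (SD, n = 2). In these windows all other autosomal viewpoints had 1.77 ± 0.029 and crowded ones 1.83 ± 0.037 (SD, n = 2). In windows with 6 or more viewpoints the ratio was 1.36 ± 0.035 for isolated active viewpoints and 2.22 ± 0.080 for all other autosomal viewpoints (SD, n = 2). It was 1.75 ± 0.054 for those with the nearest at 100 to 300 kb and 2.88 ± 0.20 for crowded ones (SD, n = 2).

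Isolated inactive controls went the other way. They had a ratio of 1.20, 1.27 and 1.27 in windows without a viewpoint (1.24 ± 0.047, SD, n = 2) and of 0.485, 0.416 and 0.423 in windows with 6 or more. Against the distance-matched expectation, their ratio in windows without a viewpoint was 1.19 ± 0.040 (SD, n = 2). Inactive controls that were not isolated had 0.719, 0.761 and 0.770 in windows without a viewpoint and 1.25 ± 0.049 (SD, n = 2) in windows with 6 or more, so like active viewpoints they were under 1 in the former and above 1 in the latter. A ratio above 1 in each of the 3 libraries was found for 35 of the 44 isolated inactive controls (79.5%) and for 19 of the 491 isolated active viewpoints (3.87%), against 1.55% of all 6517 viewpoints and 13.6% of the 132 other inactive controls. Depth moved with this class (medians of 73264.5 and 6866 events). Against the 14 isolated active viewpoints with at least 30000 events, which had 0.539 ± 0.006 (SD, n = 2), the inactive controls stood 0.70 higher, and against all isolated active viewpoints 0.61. Of those 14, 12 lie in a single deeply captured stretch of chromosome 9, and the other 2 had 0.753 ± 0.052 (SD, n = 2), so the difference against them is smaller than against all.

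**Figure D3:**
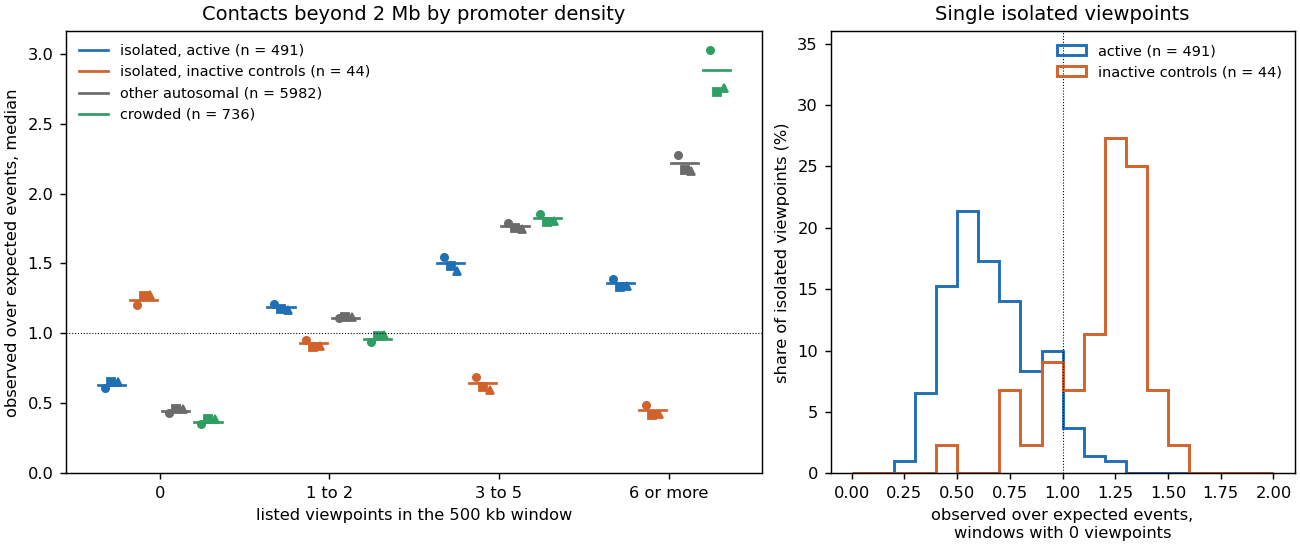
Left, observed over expected events beyond 2 Mb (vertical axis) by the number of listed viewpoints in the 500 kb window (horizontal axis), as medians per library. Right, the share of isolated viewpoints (vertical axis, percent) by their ratio in windows without a viewpoint. Isolated inactive controls are highest in such windows (1.24) and lowest in windows with 6 or more viewpoints (0.452). Over the classes of window, isolated active viewpoints are lowest in windows without a viewpoint (0.631), where other autosomal (0.446) and crowded viewpoints (0.369) lie lower.

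Single promoters spread widely around these medians. The 4 highest ratios belonged to inactive controls. Among these, Pramel6 had 1.40, 1.45 and 1.46, Grm6, a metabotropic glutamate receptor of the retina, 1.39, 1.47 and 1.45, and Hgf, hepatocyte growth factor, 1.38, 1.43 and 1.43. The lowest ratios belonged to active promoters. Mki67, which encodes the proliferation marker Ki-67, had 0.219, 0.244 and 0.226, although its nearest viewpoint was 1694 kb away. Myo1d had 0.282, 0.262 and 0.237, Top1, DNA topoisomerase I, had 0.275, 0.299 and 0.244, and Itgb1, the integrin beta 1 chain, had 0.285, 0.315 and 0.266. Top1 and Itgb1 also lay far from their nearest viewpoints, at 1851 and 1715 kb, so 3 of these 4 low ratios came from viewpoints more isolated than the median. The lowest inactive control was Zbtb18, at 0.445 on the mean of 2 samples, inside the range of the active promoters. The 19 active viewpoints above 1 included Pex2, a peroxisome assembly factor (1.12, 1.16 and 1.18), and Cntln, with a mean of 1.28 from 1356 events.

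Among the isolated viewpoints farthest from any other were Hgf at 4328 kb, Lrp1b at 3427 kb, Pex2 at 3347 kb, Ptp4a1_Gm13363 at 2720 kb and Il1rap at 2593 kb. Hgf and Lrp1b, a very long gene of the LDL receptor family, are inactive controls. Hgf had 38.4, 39.4 and 39.7% of events beyond 10 Mb, and Lrp1b 48.3% ± 0.66 (SD, n = 2). Lrp1b had a ratio in windows without a viewpoint of 1.36, 1.41 and 1.42. Pex2 was active and had 50.8% ± 1.9 of events beyond 10 Mb (SD, n = 2). Ptp4a1_Gm13363, an active tyrosine phosphatase promoter, had 0.476, 0.639 and 0.546 in windows without a viewpoint, from 1111 events, and Il1rap, the accessory chain of the interleukin 1 receptor, had 0.907, 0.948 and 0.993. The far-out promoters therefore covered both sides of 1.

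The deepest isolated viewpoints were mostly inactive controls. Il1rn, the interleukin 1 receptor antagonist, had 29912, 66912 and 67055 events, the most of any. Scgb2b1, a secretoglobin, had 146423 in all, Celf2, an RNA-binding splicing regulator, 142713, Pdha2, the testis form of a pyruvate dehydrogenase subunit, 132420, Olfr983 130687 and Serpinb7 127507. The 1 active viewpoint among the 6 deepest was Slc25a36, a mitochondrial carrier, with 31708, 56125 and 54691 events. It lies in a deeply captured stretch of chromosome 9 that held 14 isolated viewpoints. In windows without a viewpoint, Slc25a36 had 0.656, 0.670 and 0.682, whereas the 5 deep inactive controls other than Il1rn were above 1 in 3 of 3 libraries and Il1rn had 0.892, 0.966 and 0.971. Slc25a36 was below all 6 of these inactive controls in each library.

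The 44 isolated inactive controls included 4833423E24Rik, Adgrl2, C130026I21Rik, Celf2, Ces1b, Chd7, Cyp7b1, Dctd, F3, Flrt3, Gm14092, Gm5885, Grm6, Hgf, Hsd3b4, Il1rn, Irx3, Itgbl1, Jph1, Klra5, Lrp1b, Meis2, Mroh5, Nbea, Olfr1030, Olfr480, Olfr983, Pdha2, Pramel6, Ralyl, Scgb2b1, Serpina3i, Serpinb7, Serpinb9g, Skint4, Slc15a5, Tfap2d, Tnfsf18, Upp2, Vmn1r42 and Zbtb18. They hold genes of odour and pheromone receptors, liver enzymes such as Cyp7b1, and developmental transcription factors such as Irx3 and Meis2. Their share from 10 to 100 kb was 10.6, 8.55 and 8.52%, against 12.5, 11.3 and 11.4% for isolated active viewpoints, and their share beyond 10 Mb was 43.8, 47.5 and 47.8% against 41.0, 43.7 and 43.1%. Against the 14 deep active viewpoints the share beyond 10 Mb turned, to -2.96 ± 1.16 percentage points, and the difference from 10 to 100 kb was within its spread, at 0.18 ± 0.29 (SD, n = 2), and 12 of those 14 lie in the chromosome 9 stretch. The difference in windows without a listed viewpoint did not turn.

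Events of active isolated promoters rose around the nearest other viewpoint, and those of inactive controls dipped there. For the viewpoints with the nearest other viewpoint within reach of the 10 kb bins, events in the bin of that neighbour were 2.71, 2.75 and 2.79 times the number expected from distance for 392 active viewpoints. They were 0.660, 0.592 and 0.669 times for 30 inactive controls. The active profile fell to 1.34, 1.24 and 1.24 at 50 kb before the neighbour and to 1.62, 1.57 and 1.49 at 50 kb past it, so at that distance it was higher on the far side in 3 of 3 libraries. At 10 kb the near side was higher in libraries a and c and the far side in b. The nearest viewpoint was itself an inactive control for 18 of the isolated active viewpoints and 4 of the inactive ones.

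**Figure D4:**
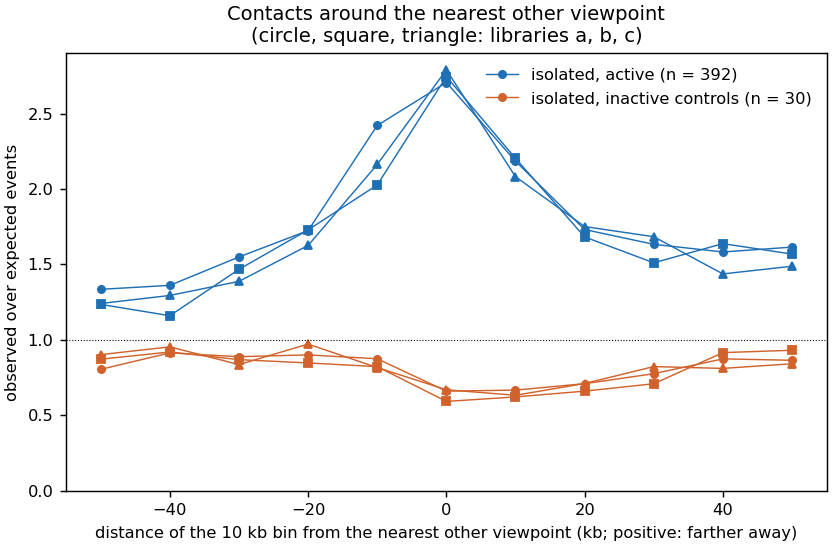
Observed over expected events (vertical axis) in 10 kb bins around the nearest other viewpoint (horizontal axis, kb from its bin, positive when farther from the isolated viewpoint), for 392 active and 30 inactive isolated viewpoints. Points joined by a line are 1 library. Active viewpoints peak at 2.71 to 2.79 on the neighbour, and inactive controls dip there to 0.592 to 0.669.

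Bins pooled over all listed viewpoints from 300 kb to 1 Mb gave the same order. Those within 10 kb of a listed viewpoint had 2.25 ± 0.014 times the expected events for isolated active viewpoints, 1.72 ± 0.011 for the other active ones, 0.715 ± 0.022 for isolated inactive controls and 1.04 ± 0.0095 for the other inactive controls (SD, n = 2), with fragments that share a 30-base word with the viewpoint left out. Coding starts that were not targeted had 1.17 ± 0.029 for isolated active viewpoints and 1.14 ± 0.016 for isolated inactive ones (SD, n = 2). The active and inactive classes of isolated viewpoints therefore stood apart at listed viewpoints and not, beyond their spread, at untargeted starts of this range. From 20 to 300 kb, untargeted starts had 1.11, 1.11 and 1.09 for isolated active viewpoints and 1.17, 1.14 and 1.14 for isolated inactive controls, which were higher in 3 of 3 libraries. Inside the own gene, from 20 to 300 kb, isolated active viewpoints had 1.16 ± 0.011 and isolated inactive controls 0.990 ± 0.003 (SD, n = 2).

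Contacts also leaned towards the gene body. For the 208 isolated viewpoints with a gene longer than 50 kb, events over the gene divided by events at the same distances upstream had a median of 1.19, 1.21 and 1.19, against 1.02 in each library for the 1113 other viewpoints of this kind. The ratio was above 1 in 3 of 3 libraries for 59.1% of them, against 43.8% of all 1321. The rule leaves no other listed viewpoint within 300 kb of isolated viewpoints, whereas both stretches of the others can hold them. Of the 10 kb bins from 20 to 300 kb of other active viewpoints, 23.1% lay within 10 kb of a listed viewpoint. These held 1.30 ± 0.0033 times the expected events (SD, n = 2), and their part in the difference was not tested. Among isolated viewpoints the inactive controls had a median of 1.04 ± 0.032 and the active ones 1.22 ± 0.017 (SD, n = 2), from 19 and 189 viewpoints. The share above 1 in 3 of 3 libraries was nearly the same in both, at 57.9 and 59.3%. The 411 viewpoints of this kind with the nearest viewpoint at 100 to 300 kb had 1.15 ± 0.0096 (SD, n = 2) and 53.0% above 1, nearer to the isolated than to the pooled others. Over the whole range from 10 kb to 1 Mb, the share of events on the downstream side was 51.9% ± 0.038 for 460 isolated viewpoints with a single strand, 50.9% ± 0.073 for the others and 52.2% ± 0.27 for those with the nearest viewpoint at 100 to 300 kb (SD, n = 2). The last of these is as high as the isolated viewpoints.

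The share of one-sided promoters had no steady order by distance to the nearest viewpoint. At least 60% of events from 10 kb to 1 Mb lay on the same side in each library for 128 of 527 isolated viewpoints away from chromosome ends (24.3%), against 30.9% of all 6372. The count was 126 of 483 among active and 2 of 44 among inactive isolated viewpoints. It was 28 of 81 (34.6%) among active ones with the nearest viewpoint beyond 1 Mb, 36.5% among viewpoints with the nearest at 100 to 300 kb and 20.9% among crowded viewpoints. Of the 128, 97 turned to the side of their nearer viewpoint, as did 1245 of 1842 one-sided viewpoints elsewhere and 331 of 392 with the nearest at 100 to 300 kb. With 5000 events as the minimum 22.9% of isolated viewpoints were one-sided.

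Among the most downstream isolated viewpoints were C130026I21Rik (87.1, 88.6 and 88.3%), Dhrs3 (83.6, 78.9 and 80.0%), Arrdc3 (81.2, 75.6 and 78.6%) and Mbp (82.3, 74.4 and 76.5%). Over all isolated active viewpoints with a single strand, chromosome ends included, the highest share was 85.8% on the mean of 2 samples. C130026I21Rik is an inactive control whose downstream side holds a fragment with matching sequence at 161 kb that took 2012 events. Dhrs3, a retinol-metabolising enzyme, and Arrdc3, an arrestin-domain protein, are active. The most upstream were Gpbp1 (18.8, 23.3 and 21.7% downstream), U2surp, a splicing factor (21.5, 22.5 and 22.5%), Klf3 (24.7, 22.6 and 20.9%) and Med7, a Mediator subunit (23.8% on the mean of 2 samples). All 8 kept their side in 3 of 3 libraries.

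Of the fixed list of 50 erythroid and blood regulators, 35 were listed viewpoints, 5 were isolated and 4 passed the depth minimum, namely the Krüppel-like factors Klf3, Klf6 and Klf13 and the ETS factor Ets1. Bcl6 was isolated but fell short of the minimum. Of 72 red cell protein symbols, 63 were listed and 2 were isolated, Kel and Slc40a1, which encodes the iron exporter ferroportin. Klf13 sent 28.8, 30.2 and 30.7% of events downstream and had 49.3, 55.4 and 53.6% beyond 10 Mb, the highest of the 6 in each library. Slc40a1 went the other way in direction, with 69.5, 68.4 and 65.2% downstream. Klf3 kept contacts near, with 18.4, 16.2 and 16.9% from 100 to 300 kb, where the median of isolated viewpoints was 5.6% ± 0.34 (SD, n = 2), and 27.5, 31.9 and 33.1% beyond 10 Mb. Ets1 and Klf6 had the highest ratios in windows without a viewpoint of the 6, at 0.944 ± 0.011 and 0.843 ± 0.011, and Kel and Klf13 the lowest, at 0.412 ± 0.065 and 0.444 ± 0.014 (SD, n = 2). The order of Kel and Klf13 is within their spread. The fragment of Ets1 held the word AGATAA on either strand at 2 positions, 1137 and 843 bases before its start.

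To find single contacts, the summed count of each 10 kb bin from 20 kb to 1 Mb was tested against the count expected from distance with a negative binomial model, and a bin was called at a Benjamini-Hochberg adjusted p under 0.05 with more than expected in each library. Of 103752 bins of isolated viewpoints 88 were called, against 0.0648% of all 1304740 bins tested. They belonged to 65 viewpoints, of which 60 were active, and 49 viewpoints had 1 bin. The rate was 0.0861% for isolated active viewpoints, 0.0704% for isolated inactive controls and 0.0647% for the other autosomal viewpoints, a difference that was not tested. The inactive rate rests on 6 bins of 5 viewpoints. In 4 of these bins most events lay in fragments that share a 30-base word with the viewpoint. The dispersion rests on random draws, and 67 of the 88 were called again with each of 5 other sets of draws, which called 77 to 95 bins. Without library b or c, 44 or 48 bins were called, and with fragments that share a 30-base word with the viewpoint left out before the fit 161 were. The lowest called ratio of observed to expected was 3.21 and the lowest count 7.

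Most contacts called far from isolated promoters lay at listed viewpoints. Of the 66 called bins from 300 kb to 1 Mb, 46 (69.7%) lay within 10 kb of a listed viewpoint, against 6.42% of the bins tested in that range. For the other autosomal viewpoints 298 of 435 did (68.5%), against 15.7% of bins tested. Of the remaining called bins of isolated viewpoints, 7 held a coding start that was not targeted and 13 held neither. Nearer than 300 kb, 9 of 22 called bins held a coding start, against 5.93% of the bins tested there, and in 4 of the 9 most events lay in fragments that share a 30-base word with the viewpoint. Of all 88, 85 were called again when fragments that share a 30-base word with the viewpoint were left out.

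**Figure D5:**
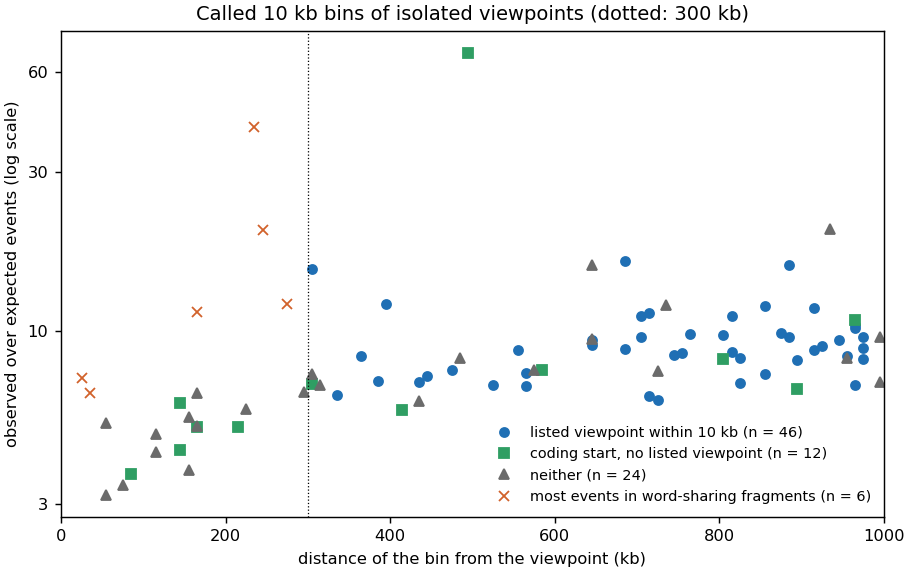
Observed over expected events (vertical axis, log scale) of the 88 called bins against distance from the isolated viewpoint in kb. Colours and shapes give what lies in the bin. Beyond 300 kb most called bins lie at listed viewpoints (46 of 66), and 6 bins, all nearer than 300 kb, have most of their events in fragments that share a 30-base word with the viewpoint.

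Among the 10 strongest called bins, 4 lay within 10 kb of another listed viewpoint. Cenpf, a centromere protein, met the promoter of Kctd3 at 680 kb with 1, 10 and 8 events, 16.3 times the expected number. Cand1, which exchanges cullin substrate receptors, had a bin at 880 kb near Helb, a DNA helicase, with 4, 6 and 7 events (15.7 times). Vps13d, a lipid transfer protein, met Dhrs3 at 300 kb with 3, 3 and 6 events (15.3 times). Mms22l, a replication repair factor, had a bin at 390 kb near Ndufaf4, an assembly factor of respiratory complex I, with 2, 9 and 3 events (12.0 times). These bins of Cand1 and Mms22l hold no protein-coding gene. The nearest coding starts, of Helb and Ndufaf4, are 12.4 and 6.49 kb from the centres of the bins. The negative binomial test gave an adjusted p of 0.000202 for Cenpf, 0.000414 for Cand1, 0.00253 for Vps13d and 0.00878 for Mms22l. Each rests on fewer than 20 events, as do 13 of the 88 called bins. The bin of Pip4k2a_4930426L09Rik at 930 kb, in Mllt10, held 1, 2 and 4 events (20.2 times). That of Rictor, a subunit of mTORC2, at 640 kb held 2, 4 and 2 events (15.8 times) and no protein-coding gene. Neither lies within 10 kb of a listed viewpoint.

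Called bins reached 2 genes of the fixed lists, which were not set against a share over all genes. The lists had 4 and 2 isolated members, and 3 of these had called bins of their own. Of all 535 isolated viewpoints, 65 had called bins. Cdca2_Kctd9 met Bnip3l, the receptor that clears mitochondria from reticulocytes, in bins at 700 and 710 kb with 8, 20 and 17 and 9, 18 and 25 events (9.59 and 11.3 times). Parp11 met Ccnd2, cyclin D2, at 300 kb with 32, 38 and 45 events (6.92 times), and Ccnd2 was not within 10 kb of a listed viewpoint. Klf6 met Pitrm1, a mitochondrial protease, at 680 kb with 7, 11 and 4 events (8.81 times). Kel met the bin of Tmem139 at 550 kb with 8, 10 and 13 events (8.75 times) and the next bin, which holds the start of Casp2, at 560 kb with 3, 12 and 11 events (7.45 times). The second of these bins of Kel was called again in 3 of 5 other sets of draws. Klf13 met a bin at 440 kb near Fan1 and Mphosph10_Mcee with 10, 19 and 20 events (7.30 times). It also met a bin at 110 kb without a protein-coding gene, with 70, 69 and 84 events (4.89 times). The bins at Bnip3l and Ccnd2 were chosen for the text after their values were seen.

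The largest ratio of all belonged to Mthfs, which encodes an enzyme of folate metabolism. The bin at 490 kb upstream (chr9:88605868-88615867) held 967, 2300 and 2287 events, 68.5 times the expected number. Its events centred on a 184-base fragment with 3216 events, flanked by a 45-base fragment with 957 and a 1282-base fragment with 831. The last of these shares an identical run of 470 bases with the Mthfs viewpoint and the first a run of 29. Of the whole bin, 15.0% of the events lay in fragments that share a 30-base word. The 184-base fragment with 3216 events, whose run is 29, is not counted among these. The bin holds the starts of Gm2382 and Gm10634. The Mthfs viewpoint had 19 of the 60 fragments called by the same test on single fragments. These 60 were 0.00284% of the pairs of isolated viewpoints, against 0.00184% of all pairs called. With the dispersion from all pairs, 24 fragments of 15 isolated viewpoints were called.

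Other strong contacts fell on fragments whose sequence repeats part of the viewpoint. Of the 22 isolated viewpoints with a called fragment, 9 shared an identical run of at least 30 bases with the called fragment that held the most events. Inactive controls made up 10 of the 22, with 29 fragments, and 44 of all 535 isolated viewpoints. Their median depth was 73264.5 events, against 6866 for isolated active viewpoints, and the part of depth in these calls was not tested. Gm5885 held 2804, 6205 and 6173 events in 1 bin at 230 kb, 41.1 times the expected number, and 91.3% of them were in word-sharing fragments. In the bins of Clec2d, a C-type lectin (20.2 times), and Klra5, a natural killer cell receptor (12.0 times), 99.3% and 92.5% were, and neither was called without those fragments. The share was 87.8% for Scgb2b1, which was not called without them either, and 83.3% for H2M3, which still was. Where probe or read can match both places, a ligation event and a match elsewhere cannot be told apart from these counts. The identical runs of 4 of these viewpoints with that fragment, outside annotated UTRs, are printed to show what is shared, with no capitals.
Clec2d, chr6:128884627-128884690 in the contacted fragment: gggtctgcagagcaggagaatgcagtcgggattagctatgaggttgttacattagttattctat
Klra5, chr6:130143367-130143423 in the contacted fragment: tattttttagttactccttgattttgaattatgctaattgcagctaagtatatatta
H2M3, chr17:37383686-37383732 in the contacted fragment: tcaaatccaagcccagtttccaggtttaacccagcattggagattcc
Scgb2b1, chr7:32087908-32087937 in the contacted fragment: tctaagtggggcatgagacagacctaggga
The run of Clec2d is 64 bases with a fragment of 135 events, that of Klra5 57 bases with 421 events, and that of H2M3 47 bases with 3111 events. In Scgb2b1 the run covers 30 of the 32 bases of a fragment that took 7102 events, the most of these 4.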

How the data were processed

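NuTi Capture-C libraries of ter119+ erythroid cells (3 libraries, 1 group) were trimmed with Trim Galore and aligned with Bowtie to mm9 by the authors, per the labels, and processed with CCseqBasic or its modified script CCseqBasicM. Versions of the aligner were not given in the sources used here. The deposited signal per fragment is reporters per 100000 cis reporters of each viewpoint and library, with targeted fragments left out. Counts were worked back from the deposited signal: the smallest value above 0 of a viewpoint in a library is 1 event, and 100% of values came out whole within 0.01 event. The listed end of 1 viewpoint (Yme1l1_Mastl) lay past the end of its chromosome and was replaced by the end of its DpnII fragment after the data were seen. Read pairs without molecular identifiers are not independent molecules. It is not stated whether the 3 libraries came from separate animals, and their columns are unnamed.

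Shares, decay and window ratios were medians over viewpoints per library. Expected bin counts came from distance, scaled within 3 ranges per viewpoint, and the negative binomial dispersion from all but the highest 0.1% of bins, checked on simulated data. Python 3.11.15, numpy 2.4.6, pandas 2.3.3 and scipy 1.17.1 were used with NCBIM37 (mm9) and GENCODE M1. The inactive class was taken from the study's list of control promoters. The members and lists were chosen with earlier results of these data known. Members were named if inactive or on 1 of the 2 lists. Also named were the 6 deepest, the 6 farthest, those with the 10 strongest called bins and the 4 most downstream or upstream. The last named were the 4 highest or lowest in windows without a listed viewpoint. A few named members and 1 sequence are not reported here.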

Additional observations from a re-analysis of the deposited data

How the results depend on the processing

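Differences between sets of viewpoints were taken within each library. With libraries b and c counted as 1 sample the precision rests on 2 values, and the called bins of shallow viewpoints rest on few events. Differences below are isolated minus other viewpoints. With an isolation distance of 200 kb the share from 100 to 300 kb differed by -4.07 points and that beyond 10 Mb by 8.88. The slope differed by 0.024 and the ratio in windows without a listed viewpoint by 0.19. At that distance 28.7% were one-sided, and 134 of 156921 tested bins were called. At 500 kb the values were 11.4 points beyond 10 Mb, a slope turned to -0.023 and 0.24 in windows without a listed viewpoint. There 52.3% lay downstream, and 47 of 56226 tested bins were called. With at least 5000 events the values were 0.011 for the slope, 0.24 in windows without a listed viewpoint and 51.4% downstream. Without inactive controls the share from 100 to 300 kb differed by -4.76 points, the slope turned to -0.0018, the window ratio was 0.19 and 52.3% lay downstream. The slope difference of 0.0061 became 0.020 without scaling and turned to -0.12 over 10 to 300 kb, where the downstream share was 52.5%. The window ratio of 0.21 was 0.20 beyond 10 Mb, 0.22 in 1 Mb windows and 0.18 against a distance-matched expectation, a setting under which the inactive controls stood 0.57 above the active. Against active viewpoints with at least 30000 events they stood 0.70 above, and their share beyond 10 Mb turned to -2.96 points and that from 10 to 100 kb to 0.18, within its spread. In the main setting 88 of 103752 tested bins were called. The number was 53 when the top 1% of standardised counts stayed out of the dispersion, and 44 of 41336 in 25 kb bins. It was 161 with word-sharing fragments left out before the fit, and 44 to 81 with 1 library left out (44 without library b, 48 without c). Called fragments fell from 60 to 24 with the dispersion from all pairs. The cause of these changes was not tested. Of 92 alternatives 58 stayed within the spread, within the interval of the one-sided share given below or within 1.5 times the count. Another 29 moved and 5 turned. Leaving out library b or c could move a mean of 2 samples only little, because these libraries count as 1 sample. The one-sided shares have no SD over samples. They were judged by a 95% interval around 24.3%, from 20.7 to 28.2%, which, unlike the other measures, treats viewpoints as independent. The settings added after seeing the data were the distance-matched expectation, the deep active comparison, the fragment dispersion, the inactive controls and called bins without the chromosome 9 stretch (63 bins), and other random draws for the dispersion (77 to 95 bins).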
